A study of Mus musculus with 6 samples.

Results

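Summits of N4-acetylcytidine (ac4C) pull-down that lay in coding sequence more than 300 nt from the start of the transcript are described here. They were taken from the authors' list of summits by 2 entries of each row, the region given as coding sequence and the summit position on the transcript. The rule gave 693 summits of 1876, or 36.9%, on 658 transcripts of 598 genes. The position counts from the first base of the transcript and includes the 5' untranslated region, so a summit beyond 300 nt can still be close to the start codon. Neither the fold nor its p-value was used to choose the summits.

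The RNA came from 32D cells, an established mouse bone marrow line with wild-type genotype that the labels class as lymphoblastocytes, grown with 10% FBS and 10 ng/mL interleukin 3 (IL-3). Poly(A) RNA was pulled down with an ac4C antibody (2 libraries) or control IgG (2 libraries), and 2 input libraries had no pull-down. All 3 groups shared cell line, genotype and medium, and the list holds 1 value per summit from the merged ac4C libraries. No value per library, no replicate error and no depth per library were analysed here, and no IgG or input value stands beside a summit. Of 10 myeloid marker genes, Spi1, Csf2rb and Fcer1g, 3 in all, had a listed summit, and 1, Csf2rb, had a coding summit beyond 300 nt. Of markers of other cell types, 0 of 13 B cell, 0 of 19 T and NK cell, 1 of 15 erythroid (Hba-a1), 1 of 12 megakaryocyte (Pf4) and 2 of 34 non-hematopoietic genes had a listed summit.

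ac4C is made on RNA by the acetyltransferase Nat10, which is best known for acetylating ribosomal RNA and, with the adaptor Thumpd1, some transfer RNAs. On mRNA the mark has been mapped by antibody pull-down, and in coding sequence it has been linked to translation and transcript stability. Coding sequence is read by the ribosome codon by codon, whereas untranslated regions carry signals for initiation, decay and localisation.

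The fold enrichment in the list is that of the authors' peak caller. Every fold was a multiple of 0.475 by a whole number (tolerance 0.01), so 1 constant background of 1.11 fragments stood under every summit. A fold therefore reports the pileup of pulled-down fragments and carries no correction for how abundant the transcript is. The pileup at coding summits beyond 300 nt ran from 6 to 548 fragments with a median of 20. Exact Poisson 95% intervals of the pileup, converted to folds, are given below and cover counting error only. The lowest fold, 3.32 from 6 fragments, has an interval from 1.52 to 6.67, and the median fold of 9.97 from 20 fragments has one from 6.27 to 15.1. The highest q-value among these summits in the authors' deposited table was 0.00193.

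The tallest coding summits beyond 300 nt lay on genes of varied function, and 2 of them stood apart. mt-Nd4, a complex I subunit gene of the mitochondrial genome, had a fold of 260.6 (239.3 to 283.3) at nt 1090. Ifitm1, the gene of an interferon-induced membrane protein, had 147.1 (131.2 to 164.4) at nt 603 of ENSMUST00000106042. The intervals of these 2 summits overlapped neither each other nor that of any lower coding summit beyond 300 nt.

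A broad group followed, within which neighbours could not be ordered. Snx3, which encodes a sorting nexin of the retromer pathway, had a fold of 68.8 (58.1 to 80.9) at nt 490. Psmb4, a beta subunit gene of the 20S proteasome, had the same fold at nt 755. Eif4b, whose protein assists the helicase that unwinds mRNA leaders, had 67.9 (57.2 to 79.9) at nt 1482, and Akr1c12, an aldo-keto reductase gene, had 66.9 at nt 746. Atp5a1, the ATP synthase alpha subunit gene, reached 63.6 at nt 890, and the HSP90 beta gene Hsp90ab1 63.1 at nt 396. The histone variant gene H2aj had 60.3 at nt 455, and Eif3d, which encodes a cap-binding subunit of initiation factor 3, had 57.9 at nt 1226. Intervals from Snx3 to Eif3d all overlapped.

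The remaining genes of the top 15 were of mixed function. Krtcap2, a subunit gene of the N-glycosylation enzyme, had a fold of 56.0 at nt 603. Rexo2, an oligoribonuclease gene, had 55.5 at nt 655, and Psmb7, another 20S proteasome beta subunit gene, had 54.6 at nt 953. Sephs2, which makes the selenium donor for selenoproteins, had 54.1 at nt 1043. Myh9, the gene of a nonmuscle myosin heavy chain, had 52.2 (43.0 to 62.9) at nt 3697, the only one of these 15 beyond nt 2000. At the low end, 11 summits shared the fold of 3.32, among them those of the checkpoint kinase gene Chek2 at nt 414, the extracellular matrix gene Ecm1 at nt 309 and the translational repressor gene Eif4enif1 at nt 774.

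Set beside the other regions, coding summits beyond 300 nt had the lowest median fold. Their median was 9.97 (quartiles 6.17 and 18.04), against 12.3 (7.12 and 21.8) for the 1183 other listed summits, a ratio of 0.808. Medians were 11.9 (7.83 and 27.1) for the 207 coding summits up to 300 nt, 13.8 (7.12 and 24.2) for the 133 summits in 5' untranslated regions and 12.3 (7.12 and 20.4) for the 843 in 3' untranslated regions. The quartile ranges overlapped widely. These are descriptions of 1 merged list, and the differences were not tested because no replicate values stand behind them.

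**Figure D1:**
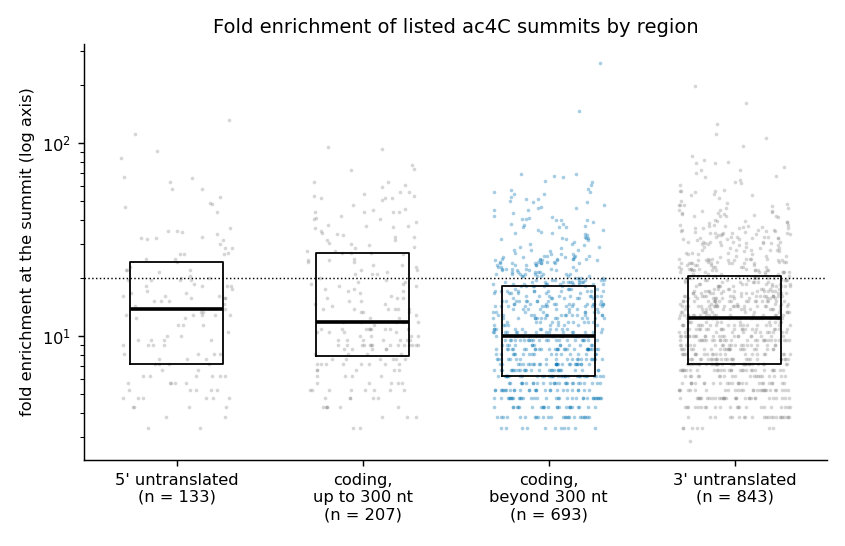
Fold enrichment (log axis) of every listed summit by region, with 1 point per summit, boxes from the lower to the upper quartile, a thick line at the median and a dotted line at a fold of 20. The 693 coding summits beyond 300 nt, in blue, have a median of 9.97, below those of the other 3 classes at 11.9 to 13.8.

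Tall summits were also a smaller share. A fold of at least 20 was reached by 140 coding summits beyond 300 nt, or 20.2% (exact Clopper-Pearson 95% interval 17.3% to 23.4%, counting error only), against 24.6% of all listed summits. The share was 27.1% (24.6% to 29.8%) of all other summits. It was 32.9% (26.5% to 39.7%) of coding summits up to 300 nt, 30.1% of 5' untranslated summits and 25.3% of 3' untranslated summits. The intervals of shares, here and below, treat summits as independent, which summits of the same gene may not be. They are no test between regions. A fold of at least 40 was reached by 33 coding summits beyond 300 nt, or 4.76%, against 6.93% of all listed summits.

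Positions of these summits ran from nt 302 to nt 8999, with a median of 953 and quartiles of 536 and 1720. Beyond nt 4000 lay 23 summits, or 3.32%. The farthest was on Dync1h1, the heavy chain gene of the motor cytoplasmic dynein, at nt 8999 with a fold of 12.3 (8.15 to 18.04). Among the other far summits, the ubiquitin ligase gene Huwe1 had a fold of 10.4 at nt 7209. Tasor2 had 5.22 at nt 6990, and the lipid transporter gene Abca2 had 7.12 at nt 6045. These 4 lie on long transcripts by necessity, and none of them reached a fold of 20.

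Along the transcript, tall coding summits were more frequent near the start. The share with a fold of at least 20 was 40.6% of 32 coding summits within the first 100 nt, 33.3% of 93 from there to 200 nt and 29.3% of 82 from there to 300 nt. Past the threshold it was 19.7% of 147 up to 500 nt, 26.1% of 218 from 500 to 1000 nt and 20% of 190 from 1000 to 2000 nt. It was 11.3% of 115 from 2000 to 4000 nt and 13.0% of the 23 beyond that, with a 95% interval from 2.78% to 33.6%. Median folds did not follow 1 direction, with 10.9, 13.1, 8.54, 9.49 and 10.4 in the 5 classes from 300 nt onwards. Position is limited by transcript length, and its part in these shares was not tested.

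**Figure D2:**
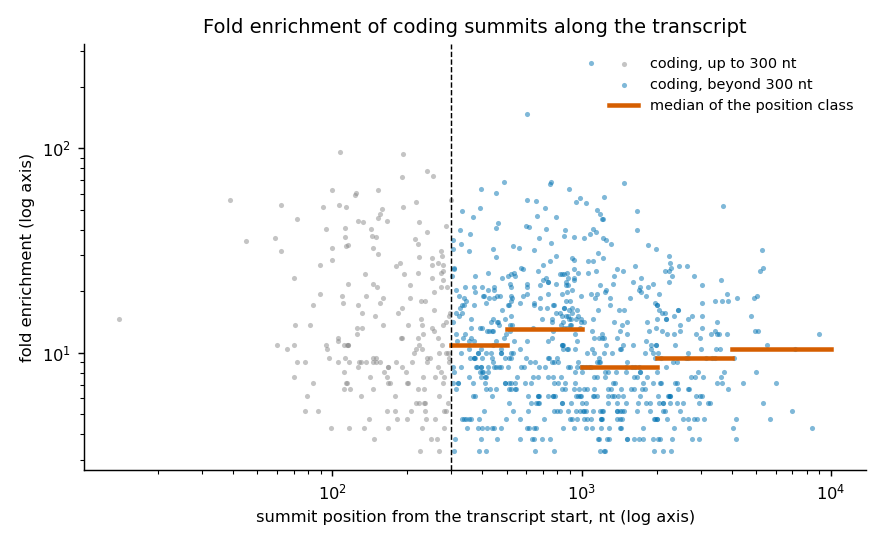
Fold enrichment of all coding summits (log axis) against the distance of the summit from the transcript start in nt (log axis), with summits up to 300 nt in grey, those beyond in blue and the median of each position class as an orange bar. The medians lie between 8.54 and 13.1, and of the 33 folds of at least 40 beyond 300 nt, 1 lies beyond nt 2000.

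The threshold itself cut through a dense stretch. Just outside it lay coding summits of Bnip3 at nt 294 (fold 9.02), Anapc11 at nt 296 (15.7) and Igfbp4 at nt 298 (56.0). Just inside lay Gnas, the gene of a stimulatory G protein subunit, at nt 302 (23.7), the histone deacetylase gene Hdac3 at nt 304 (35.6) and Serf1 at nt 305 (8.54). Within 100 nt on either side there were 82 coding summits each, with median folds of 11.4 before and 10.9 after 300 nt. Within 50 nt there were 43 before, with a median of 13.3, and 38 after, with a median of 14.7.

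Most of the 598 genes had 1 coding summit beyond 300 nt, namely 517, while 73 had 2, 4 had 3, 2 had 4 and 2 had 5. The 81 genes with several, or 13.5%, had them on 1 transcript in 24 cases, on 2 transcripts in 54 and on 3 in 3. Isoforms of a gene share exons, and reads of a shared exon can be divided among them. Summits on different transcripts of 1 gene may therefore be 1 site.

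The 8 genes with 3 or more such summits included chromatin, cytoskeleton and RNA-binding genes. Chd4, the ATPase gene of the NuRD remodelling complex, had 5 on 3 isoforms. Those near the 3' side, at nt 5183, 5305 and 5356, had folds of 25.2, 31.8 and 26.1 with overlapping intervals. The earlier ones, at nt 517 and 3019, had 12.8 (8.54 to 18.6) and 10.4 (6.65 to 15.7), below the intervals of all 3 later ones. Gsn, which encodes the actin-severing protein gelsolin, also had 5. On 1 isoform its folds were 6.17 at nt 612, 14.7 at nt 1998 and 15.7 at nt 2104. On 2 other isoforms they were 6.17 at nt 1353 and 7.12 at nt 1333.

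Pdcd11, a gene of small ribosomal subunit assembly, had all 3 summits on 1 transcript, with folds of 6.65 at nt 2663, 6.65 at nt 3854 and 19.0 (13.6 to 25.8) at nt 5059. The last was taller than both earlier ones beyond counting error, since their interval ends at 11.0. Ccdc88b, a gene of the Hook-related family, had the reverse order on both of its isoforms, with 12.3 at nt 3294 before 7.12 at nt 4434 and 14.7 at nt 2173 before 9.49 at nt 3350. In both pairs the intervals overlapped.

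Atp5a1 had the tallest group, with folds of 63.6 at nt 890 and 47.9 (39.1 to 58.2) at nt 1183 of 1 isoform and 57.0 at nt 981 of another. Lyar, a nucleolar protein gene, had 21.4 at nt 1190 and 21.8 at nt 1332 of 1 isoform and 25.6 at nt 1382 of another. Pabpc4, a poly(A)-binding protein gene, had 4 low summits with folds from 5.70 to 8.54, and the septin gene Septin8 had 3 from 5.70 to 9.97 on 3 isoforms. Within Atp5a1, Lyar, Pabpc4 and Septin8 every interval overlapped every other.

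**Figure D3:**
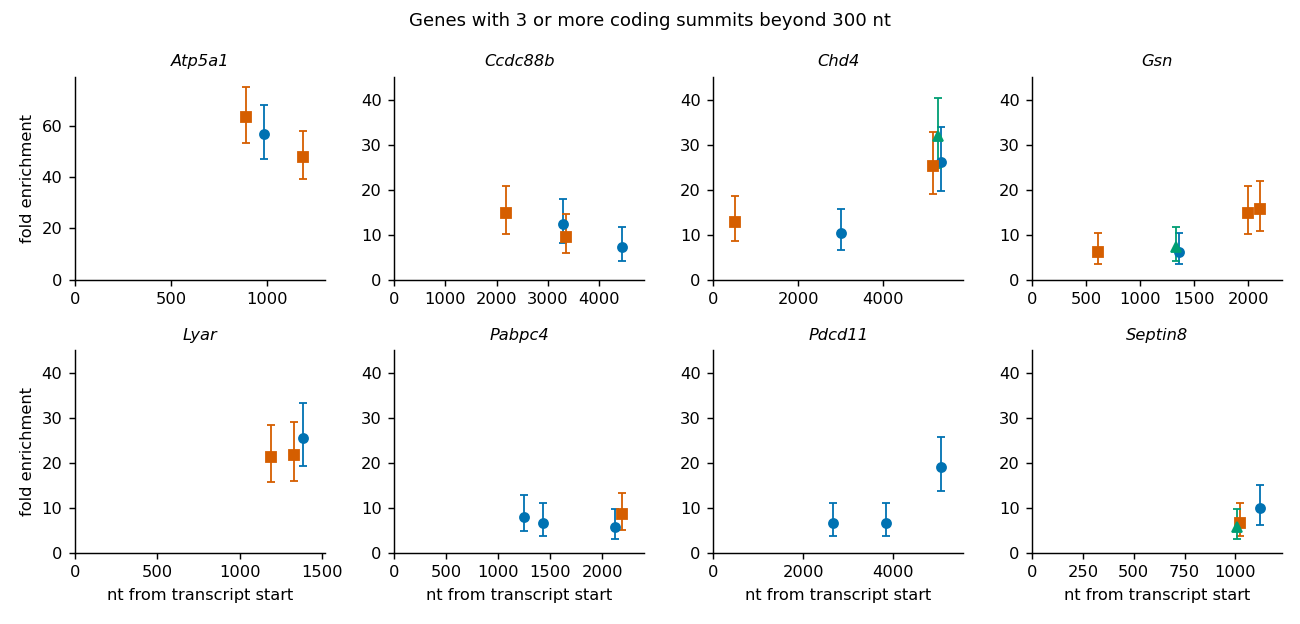
Fold enrichment (bars are exact Poisson 95% intervals of the pileup) against distance from the transcript start for the 8 genes with 3 or more coding summits beyond 300 nt, with 1 symbol and colour per transcript and a taller axis for Atp5a1. Chd4, Gsn and Pdcd11 have their tallest summits on the 3' side, and Ccdc88b and Atp5a1 do not. Within Ccdc88b, Atp5a1, Lyar, Pabpc4 and Septin8 every interval overlaps every other.

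Neighbouring coding summits on the same transcript could be measured in 35 pairs on 32 transcripts of 30 genes. They lay 106 to 4666 nt apart, with a median of 735, and 10 pairs lay within 300 nt. The closest pair was that of Gsn, and Phf10, a subunit gene of a chromatin remodelling complex, followed with 120 nt and folds of 23.3 and 19.5. Ndufv2, a complex I subunit gene, had folds of 41.3 and 39.9 at a distance of 243 nt. The taller summit of a pair exceeded the other 1.31 times in the median, and the later one was taller in 15 pairs, lower in 17 and equal in 3. The most unequal pairs were Mki67, the proliferation marker gene, with 3.80 at nt 1931 and 18.04 at nt 3644, and Copb2, a coatomer subunit gene, with 28.0 at nt 1112 and 6.65 at nt 2438.

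For 50 genes with exactly 1 such summit on each of 2 transcripts, the taller exceeded the other 1.29 times in the median. In 36 of them the folds lay within 1.5 times of each other, as for the proteasome ATPase gene Psmc2 with 49.4 and 39.9 at nt 1662 and 1667. In 9 they differed more than 2 times. The largest ratio was 4.42 for the adhesion receptor gene Adgrg1, with 5.70 at nt 654 and 25.2 at nt 2167.

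Genes with a summit in a second region allow a comparison in which both summits belong to 1 gene. Of the 598 genes, 488, or 81.6%, had no listed summit outside the coding sequence beyond 300 nt, and 110 did. Taking the tallest summit of each kind, the fold in coding sequence beyond 300 nt was lower than in the 3' untranslated region in 52 of 78 genes, higher in 23 and equal in 3, with a median ratio of 0.742. Restricted to 41 transcripts with both, it was lower in 25, higher in 15 and equal in 1, with a median ratio of 0.781.

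The ratio varied widely between genes. Pkm, the pyruvate kinase gene, had 14.2 in coding sequence against 198.4 in the 3' untranslated region, on different isoforms. Ddb1, an adaptor gene of cullin ubiquitin ligases, had 3.80 (1.81 to 7.32) against 41.3 (33.1 to 50.9) on 1 transcript. The small GTPase gene Rhoc had 4.27 against 28.0, Pcyox1l 7.59 against 37.0 and the corepressor gene Cbfa2t3 5.22 against 22.3. The summits of Rhoc and Cbfa2t3 lay on different isoforms. In the other direction, Rab21, an endosomal GTPase gene, had 27.1 (20.6 to 34.99) in coding sequence against 4.27 (2.11 to 7.96) on the same transcript. The kinesin gene Kif18b had 12.8 against 5.22, the receptor gene Lrp10 16.1 against 7.12, Pdzd8 21.4 against 9.49, and Trappc6a, a tethering complex gene, 17.1 against 7.59. The summits of Lrp10 and Trappc6a lay on different isoforms. Intervals were apart for Pdzd8 and overlapped for Kif18b, Lrp10 and Trappc6a.

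Against 5' untranslated summits of the same gene, no coding summit beyond 300 nt was taller. Of 13 genes, 11 had the lower fold in coding sequence, and Actr10 and Dbi had equal folds of 19.9 in both. The median ratio was 0.655. Restricted to 8 transcripts with both, the fold in coding sequence was lower in 7 and equal in 1, with a median ratio of 0.772. The lowest ratios were those of Pim1, a kinase gene induced by cytokines, with 10.9 against 25.2, Hnrnpk with 7.12 against 16.1, and Ppp1r18 with 5.70 against 12.8. Next by ratio were the centrin gene Cetn3 with 16.6 against 35.1 and Tlnrd1 with 9.02 against 15.7. For Pim1, Hnrnpk and Ppp1r18 the summits lay on different isoforms. Intervals were apart for Pim1 (7.02 to 16.3 against 18.9 to 32.8) and Cetn3 (11.7 to 23.0 against 27.6 to 44.0). For every other gene of the 13 they overlapped.

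Against coding summits up to 300 nt the order was mixed. The fold beyond 300 nt was higher in 17 of 27 genes and lower in 10, with a median ratio of 1.17. On the 10 transcripts that carried both, it was higher in 4 and lower in 6, with a median ratio of 0.863. The highest ratios were those of Eif4b (67.9 against 19.0), the histone chaperone gene Anp32e (24.7 against 9.97), Hsp90ab1 (63.1 against 27.5), Tax1bp1 (19.0 against 8.54) and Luc7l3 (14.7 against 7.12), all on different isoforms. The lowest were those of the ATP synthase gene Atp5o (20.9 against 44.1), Bud31 (3.80 against 7.59), the lysyl-tRNA synthetase gene Kars (14.2 against 27.1), Ndufa12 (25.6 against 40.3) and Phf10 (23.3 against 33.7). Among these lowest, Atp5o, Bud31 and Kars also had their summits on different isoforms, while Ndufa12 and Phf10 had both on the same transcript.

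**Figure D4:**
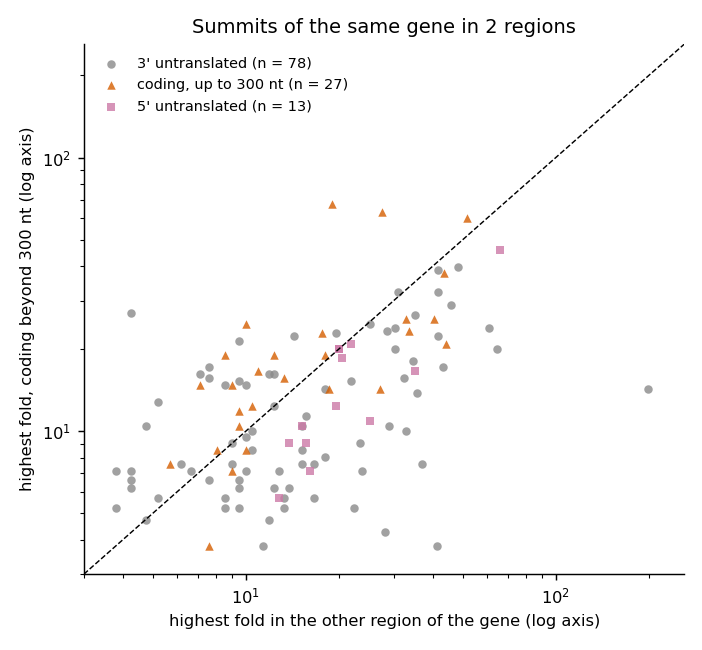
Highest fold of coding summits beyond 300 nt against the highest fold in another region of the same gene (both log axes), with 1 point per gene and a dashed line at equality. Grey circles are 78 genes with 3' untranslated summits, orange triangles 27 with early coding summits and purple squares 13 with 5' untranslated summits, none of which lies above the line.

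The functions of the 598 genes were described with 28 gene lists, which held 225 of them, or 37.6%. Over all 598 genes the median of the highest fold per gene was 10.4 (quartiles 6.65 and 18.5), and 128, or 21.4%, reached a fold of 20. Of all 1485 genes with any listed summit, 598, or 40.3%, had a coding summit beyond 300 nt. Each list is given with its own counts and median, and no list was tested. Lists overlap, so a gene can count in more than 1. Ddx39b, Ddx23, Dhx15 and Ddx46, for example, stand in both the splicing and the ribosome biogenesis lists. Of the 18 lists with at least 6 genes that had such a summit, the median highest fold was below that of the list's summits elsewhere in 12, above it in 5 and equal in 1. It was lower, for example, for respiratory chain and ATP synthase genes (20.6 against 40.3), chaperones (19.0 against 33.7) and cell cycle genes (8.78 against 20.9). The 5 lists with the higher median included translation factors (16.6 against 10.9), ribosome biogenesis and RNA helicases (17.1 against 15.2) and vesicle transport (15.2 against 12.8). The others were proteasome and ubiquitin (14.2 against 13.5) and chromatin (7.59 against 7.12), where the medians lay close together. Over all genes the medians were 10.4 and 12.8. These medians take the tallest summit per gene. Counted over every coding summit beyond 300 nt of translation factor genes, the median was 8.07.

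Energy metabolism held some of the tallest coding summits. Respiratory chain and ATP synthase genes had 12 genes among 27 with any summit, a median of 20.6 and 7 genes at a fold of at least 20. After mt-Nd4 and Atp5a1 came Ndufv2 at 41.3, and the lowest was Ndufs1, a core complex I gene, at 4.75. Glycolysis, pentose phosphate and tricarboxylic acid cycle genes had coding summits beyond 300 nt on 13 of 15 genes with any summit, or 86.7%, with a median of 14.2. They were led by Pgd, a pentose phosphate dehydrogenase gene, at 29.0, the lactonase gene Pgls at 23.3 and the isomerase gene Tpi1 at 22.3. Slc16a1, a lactate transporter gene, had 22.3 as well, and the lowest was Ogdh, an enzyme gene of the tricarboxylic acid cycle, at 4.75.

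In protein synthesis, translation factors had 12 of 22 genes and a median of 16.6, with Eif4b, Eif3d and then Eif3k at 32.8, down to Eif4enif1 at 3.32. Counted over all 17 summits of these 12 genes, in place of the tallest per gene, the median was 8.07. Aminoacyl-tRNA synthetase genes had 6 of 11 and a median of 8.31, with Kars at 14.2, Vars at 10.4, Cars at 8.54 and the lowest at 5.70 on Farsa. Cytosolic ribosomal protein genes had 1 of 2 genes with any summit, Rpl29, at 8.54. Ribosome biogenesis and RNA helicase genes had 15 of 23, or 65.2%, and a median of 17.1, led by Nsa2 and Rrs1, both of large subunit assembly, at 38.0 and 29.0, and Ddx39b, a helicase gene of mRNA export, at 26.6. The lowest was Bms1 at 5.70. Mitochondrial ribosome and import genes had 7 of 21 and a median of 8.54, with the import receptor gene Tomm70a at 22.3, Hspd1 at 19.0, Gfm1 at 9.49 and the lowest at 3.80 on Mrpl55 and Clpx.

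Splicing and hnRNP genes had 21 of 34, or 61.8%, with a median of 14.7 and 3 genes at a fold of at least 20. The highest were Srsf3, a serine- and arginine-rich splicing factor gene, at 33.2, Ddx39b at 26.6 and Sf3b3, a U2 particle subunit gene, at 22.8. The lowest was Hnrnpr at 3.80. RNA modification genes had 3 of 7, namely Rbm15b at 14.7, Nsun2 at 5.70 and the demethylase gene Fto at 4.27. Nat10 and Thumpd1 had no listed summit.

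In protein turnover and folding, proteasome and ubiquitin genes had 16 of 33 genes and a median of 14.2. After Psmb4 and Psmb7 came Psmc2 at 49.4, and the lowest was Ddb1 at 3.80. Chaperone genes had 11 of 23 and a median of 19.0, with Hsp90ab1 first, Pdia4, a disulphide isomerase gene, at 33.7 and Cct2, a chaperonin gene, at 22.8, down to Bag6 at 6.17. Lysosome and autophagy genes had 6 of 15 and a median of 14.95, led by the cholesterol carrier gene Npc2 at 49.4, Atg3 at 19.9 and Map1lc3b at 15.7, with Psap lowest at 5.70.

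In the cytoskeleton and membrane traffic, actin, microtubule and motor genes had 19 of 29, or 65.5%, and a median of 15.7. Arpc5, an Arp2/3 complex gene, had 31.3 after Myh9, and the actin-capping gene Capza1 and the dynein gene Dync1li1 had 24.7 each, while Rdx was lowest at 4.27. Vesicle transport genes had 22 of 57, or 38.6%, and a median of 15.2. Arf6 had 36.5 and Rabl6 29.9 after Snx3, and Exoc7 was lowest at 3.32. Solute carrier and ABC transporter genes had 9 of 23 and a median of 7.12, with the amino acid transporter gene Slc7a5 at 38.9, Slc16a1 at 22.3, Slc35g1 at 15.2 and Abcb9 lowest at 4.27.

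In the nucleus, cell cycle and replication genes had 16 of 35 genes and a median of 8.78. Ccng1, a cyclin gene of the p53 response, had 40.8, the topoisomerase gene Top2a 34.7 and the replicative helicase gene Mcm7 26.6, while Chek2 and Orc2 were lowest at 3.32. Chromatin genes had 12 of 24 and a median of 7.59, with Hdac3 at 35.6, Chd4 at 31.8 and the arginine methyltransferase gene Prmt7 at 13.3, and Dnmt1, the maintenance DNA methyltransferase gene, lowest at 3.80. Nucleotide, amino acid and lipid metabolism genes had 6 of 15, led by Gmps, a GMP synthase gene, at 32.3, Asns at 21.4 and Fdps at 11.9, and the lowest fold, 4.27, was found on Mthfd1 among others.

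**Figure D5:**
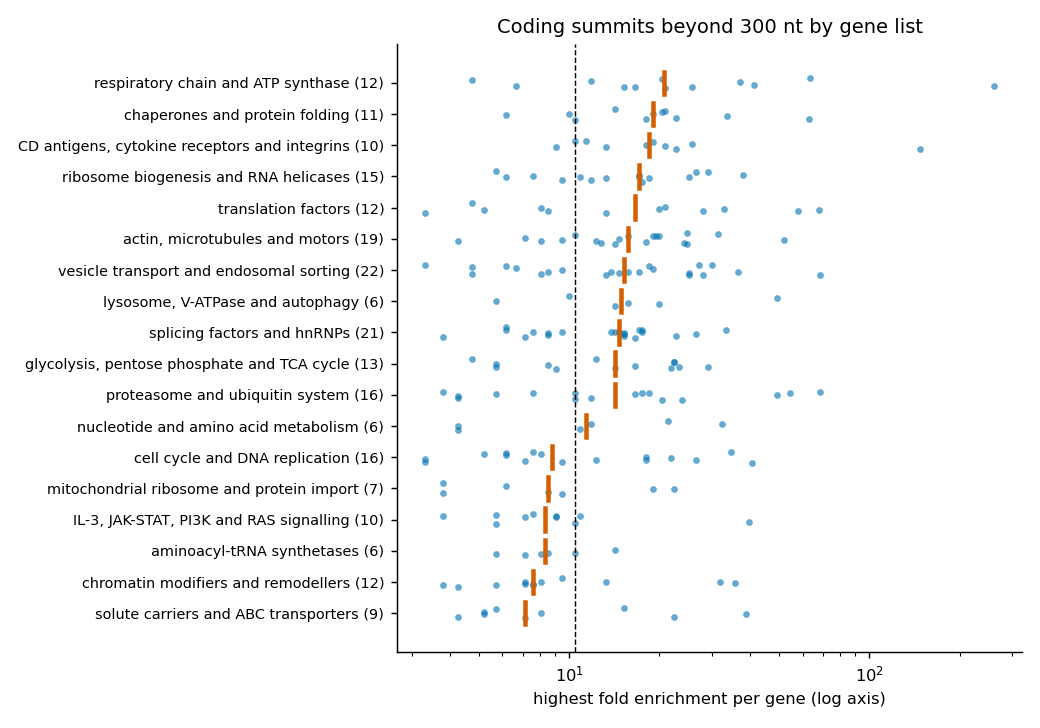
Highest fold of coding summits beyond 300 nt for each gene (log axis), by gene list for lists with at least 6 such genes, with the number of genes in parentheses, an orange bar at the list median and a dashed line at the median of all 598 genes, 10.4. List medians run from 7.12 for transporters to 20.6 for respiratory chain and ATP synthase genes, and single genes within each list spread widely around them.

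Among signalling and surface genes, CD antigens, cytokine receptors and integrins had 10 of 20 genes and a median of 18.5. Cd63, a tetraspanin gene, had 25.6 and Cd47, an inhibitory signal to phagocytes, 22.8 after Ifitm1. Csf2rb, the common signalling chain of the IL-3 receptor, had 9.02, the lowest of this list, and Csf2rb2, a closely related IL-3 receptor chain gene, had 10.4. Reads of these similar genes could be divided between them. IL-3, JAK-STAT, PI3K and RAS genes had 10 of 20 and a median of 8.31. Cdc42, a GTPase gene of actin organisation and cell polarity, had 39.9 and Pim1 10.9, followed by Csf2rb2, and Pik3cd was lowest at 3.80. The kinase gene Jak1 had 7.12. Jak2, Stat5a and Kit had no listed summit.

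Hematopoietic transcription factor genes had 3 coding summits beyond 300 nt among 12 genes with any summit, or 25%. Cebpd had 19.5, Myc 11.4 (7.40 to 16.9) at nt 731 and Cbfb 6.65. Spi1, Gata1 and Myb had listed summits elsewhere only. Genes of apoptosis and the p53 response had 4 among 14 (28.6%), among them Ccng1, Bak1 at 8.54 and Mdm2, the lowest, at 5.70. Bcl2l1 and Stat5b had listed summits elsewhere only, and Mcl1, Trp53, Runx1 and Mpo had none. Myeloid granule and identity genes had 2 of 6, Cd63 and Csf2rb. Of the markers of other cell types, 1 had a coding summit beyond 300 nt, the alpha globin gene Hba-a1 at 41.8, which has a near-identical copy. No coding summit beyond 300 nt was listed on the 12 megakaryocyte or 34 non-hematopoietic markers. Pf4, a platelet chemokine gene, had a fold of 125.3 in its 3' untranslated region. Absence from the list does not show absence of the mark.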

How the data were processed

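Cutadapt, Bowtie2, MACS2 and GRCm39 are named, with no versions, per the submitters' processing notes. Which control the peak call used, and which filter made the list, are not stated in these notes. By its entry names the deposited list came from the merged ac4C libraries. Its columns, per the file headers, are a fold enrichment (ratio), a −log10 p-value, a −log10 q-value and the summit position. With no value per library, the comparison with IgG and input and any test between samples were not run. The pileup followed from the step of the fold. Recomputed Poisson −log10 p-values differed from the deposited ones by at most 0.000474%, over the 1861 summits where this was numerically possible.

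Medians, quartiles and shares were computed with pandas 2.3.3 and intervals with scipy 1.17.1. A simulated list was used to check the recovery of a known ratio of medians. Its background was searched with the answer known, so that part checks nothing. Intervals, spacing, within-gene ratios and gene lists were not checked on simulated data. Of 598 gene symbols, 596 matched a RefSeq gene table (GRCm38.p6, names only). Gene lists given by name stems were cleared of 65 genes of other function. Summits and lists were chosen with earlier results of these data known. Genes were named by rank of fold, position, number of summits or within-gene ratio, and by a fixed list. Coding sequences of the summits were not used here. Some genes are not reported here.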

Additional observations from a re-analysis of the deposited data

How the results depend on the processing

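No paired analysis was possible because the list merges both ac4C libraries, and for the same reason no replicate could be left out. The within-gene ratios to 5' untranslated and early coding summits, with their alternatives, were chosen after seeing the data, and causes were not tested unless the construction shows them. The ratio of median folds to other summits was 0.952 among summits at or above the median fold, a setting that itself selects by fold. Against 5' untranslated summits it was 0.724. In the other 7 settings it ran from 0.808 to 0.846. The share of coding summits beyond 300 nt past a fold of 10 was 49.6% (55.1% of all summits) and past 40 was 4.76% (6.93% of all), by construction. Genes with several such summits numbered 30 in place of 81 when summits had to lie on 1 transcript, with or without a distance of at least 100 nt. Genes of the lists with such a summit numbered 124 in place of 225 among summits at or above the median fold, by construction. The ratio to early coding summits turned to 0.863 on the same transcript. A threshold of 200 or 500 nt gave 775 or 546 summits with median folds of 10.4 and 9.97. Depth limits single summits: at the median pileup of 20 fragments the 95% interval of a fold runs from 6.27 to 15.1.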

Other observations

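Several gene families outside the lists carried coding summits beyond 300 nt. They were chosen after the values were seen, so their counts are descriptions and carry no test. Nuclear transport genes had such summits on 9 of 12 genes with any summit, or 75%, against 40.3% of all genes, with a median highest fold of 7.59. The Ran regulator gene Ranbp1 had 26.1, the importin gene Ipo7 23.7 and the exportin gene Xpo5 14.7, and the nucleoporin genes Nup133, Nup153 and Nup85 had 13.8, 7.12 and 6.17. RNA polymerase, general transcription factor and Mediator genes had 9 of 17 and a median of 16.1. Gtf2f1, a TFIIF subunit gene, had 49.8, the shared polymerase subunit gene Polr2f 36.5 and Gtf3a, which is required for 5S ribosomal RNA transcription, 28.0.

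In some small families every gene with a listed summit had one in coding sequence beyond 300 nt. These were 4 genes of protein phosphatase 2A scaffold and regulatory subunits, with Ppp2r5a at 21.8 and Ppp2r1a at 11.9, and 5 genes of the TBC1 domain family, which includes Rab GTPase-activating proteins, with folds from 6.17 on Tbc1d15 to 17.1 on Tbc1d22b. The same held for 3 La-related genes, with Larp1b at 10.4 and Larp1 and Larp7 at 9.49, and for 3 acyl-CoA dehydrogenase genes, with Acadl at 34.2, Acadvl at 7.12 and Acads at 4.75. It also held for the RNase H2 subunit genes Rnaseh2c at 24.7 and Rnaseh2b at 20.4. S100 calcium-binding protein genes had 3 of 4, with S100a6 at 46.0, S100a10 at 20.9 and S100a1 at 19.0.

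The gene table gave 593 of the 598 genes as protein-coding, 2 as pseudogenes (Gm10184 at 10.4 and Gm6133 at 17.1) and 1 as a transcribed pseudogene (Gm6525 at 6.65), and 2 had no match, including mt-Nd4. Pseudogenes share sequence with their parent genes, so their reads may come from either. Peaks split into several summits gave 27.8% of the coding summits beyond 300 nt, against 26.5% of all listed summits. That share was 34.0% between 300 and 500 nt and 15.7% between 2000 and 4000 nt.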
